A study of Rattus norvegicus with 6 samples.

Results

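The genes described here are the metallothioneins Mt1 and Mt2A, the zinc transporters Slc30a1, Slc39a14 and Slc39a4, and Mtf1, which encodes the zinc-sensing transcription factor MTF-1. These 6 genes, of 14217 named on the array, were chosen with their values on these arrays known, so their values are a description and carry no test. They were found as the probe sets whose only gene symbol in the platform annotation is one of the names, which gave 9 probe sets. Of these, 7 probe sets of 5 genes lay above the filter on low values, a mean over the 6 arrays above 2.82 on the log2 scale. The only probe set of Slc30a1 and 1 of the 3 probe sets of Mtf1 lay under it.

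RNA was measured in livers of male Sprague Dawley rats of 210 to 230 g on 6 Affymetrix Rat230_2 arrays. The TA group of 6 h had 2 animals, each on its own array, that received tienilic acid (TA, a uricosuric diuretic) once by mouth at 100 mg/kg, in a solution of sodium bicarbonate. Its vehicle group was 1 array. The TA group of 24 h had 2 other animals, each on its own array, dosed at the start and again at 16 h, and its vehicle group was again 1 array. Vehicle rats received sodium bicarbonate alone, at the same times. The label of each vehicle array names the control animals of its time in the plural, 2 rats by the treatment protocol, and the array was taken as a pool of them. All groups share the strain, the sex and the bicarbonate. The series title asks about acute gene induction by TA, which TA against vehicle at each time addresses. A pool on 1 array shows no spread. Every standard error (SE) below is limma's moderated one, which pools the spread between TA animals over both times and draws it towards that of all 18625 probe sets above the filter. It is therefore the same at both times and assumes that a pool varies like a TA animal. Values are deposited log2 levels, where a difference of 1 is 2-fold, and levels are compared only within a probe set.

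Metallothioneins are small cysteine-rich proteins that bind zinc, copper and cadmium. In liver their genes respond to zinc, glucocorticoids, interleukin-6 and oxidants, and the zinc response runs through MTF-1, which binds metal response elements (MREs) before the gene start. Slc30a1 exports zinc across the plasma membrane and is an MTF-1 target in mouse. Slc39a14 imports zinc, iron and manganese into hepatocytes, and Slc39a4 imports zinc and is best known from the intestine.

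The stretches before the starts of Mt1 and Mt2A are shown because these are the members whose levels varied by more than 2-fold over the arrays. Both are the 250 bases before the gene start from RefSeq (GRCr8), on the minus strand, at chr19:10832976-10833225 for Mt1 and chr19:10838709-10838958 for Mt2A. Capitals mark matches to the MRE core, searched as TGCACNC and TGCGCNC on both strands.
Mt1: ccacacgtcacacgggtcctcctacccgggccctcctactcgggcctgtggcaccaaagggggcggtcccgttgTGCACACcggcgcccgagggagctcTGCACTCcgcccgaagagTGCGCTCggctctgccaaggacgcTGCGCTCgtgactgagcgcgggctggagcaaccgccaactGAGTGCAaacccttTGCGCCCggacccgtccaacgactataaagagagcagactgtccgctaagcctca
Mt2A: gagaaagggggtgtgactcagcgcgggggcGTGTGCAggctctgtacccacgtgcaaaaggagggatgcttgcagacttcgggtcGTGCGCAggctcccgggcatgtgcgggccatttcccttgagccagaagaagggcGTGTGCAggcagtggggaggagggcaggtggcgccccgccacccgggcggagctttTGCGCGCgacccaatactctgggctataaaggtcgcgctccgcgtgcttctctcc
The Mt1 stretch holds 6 matches and the Mt2A stretch 4. Over all 33469 rat promoters of this length in the table, 20.6% held at least 1 match, 0.266% at least 4 and 0.0269% at least 6. Mt3 had 3 matches, Mt4 1, Slc30a1 2 and Mtf1 2, whereas Slc39a14 and Slc39a4 were not searched. In this annotation Mt1, Mt2A, Mt3 and Mt4 follow each other on chromosome 19 with 0 other genes between them. Mt1 and Mt2A each had 1 match to the antioxidant response element (TGACNNNGC, in 10.1% of promoters) and 1 TATA box (TATAAA, in 12.9%). Mt2A also had 1 E-box (CACGTG, in 5.59%), and both had 0 matches to the STAT motif (TTCNNNGAA, in 7.67%). None of these other matches in Mt1 or Mt2A overlapped an MRE match. A match describes the letters only.

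**Figure D1:**
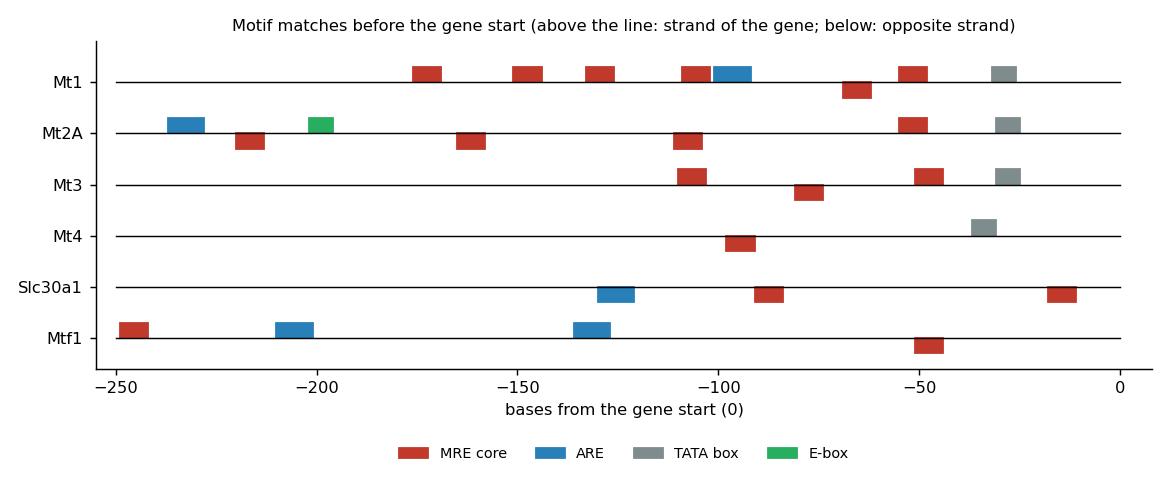
Motif matches in the 250 bases before the start of each gene, by distance from the start in bases, with boxes above a line on the strand of the gene and boxes below it on the opposite strand. The MRE matches of Mt1 lie between 176 and 49 bases before the start and those of Mt2A between 220 and 49.

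Array medians lay between 3.27 and 3.31. Of 8 hepatocyte markers listed, 7 were on the array under their own symbol and all 7 lay above the filter, with a median level between 15.20 and 15.36 on every array. Of 6 lymphocyte markers on the array, 1 lay above the filter. Fluidics runs were inferred from clock times in the hybridization date field of the instrument settings, without comparing the day. TA animal 1 of 6 h and its control pool fell in one inferred run and the remaining 4 arrays in another. GAPDH signal at the 3′ end exceeded that at the 5′ end, which reflects RNA integrity, by 2.26 and 1.92 in TA and 2.04 in vehicle at 6 h, and by 1.91 and 1.82 in TA and 2.04 in vehicle at 24 h. For beta-actin the same gap was larger, between 4.17 and 4.36 on every array. The part of RNA integrity in the results was not tested.

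Mt2A (probe set 1388271_at), the metallothionein 2 gene, was lower with TA at 24 h. Its level was 8.04 and 8.09 in the TA animals of 24 h, against 10.39 in their control pool. Both TA animals lay far under the pool and close to each other. The log2 difference was -2.33 ± 0.29 (moderated SE, 2 TA animals against 1 pool), a level 5.03-fold lower, and ranked 13 of 18625 probe sets from the lowest. Of the 7 member probe sets 1, that of Mt2A, was at least 2-fold lower in both animals, beside 0.344% of all 18625, a share given as background only. In bulk liver, fewer cells of a type and less RNA per cell cannot be told apart.

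At 6 h Mt2A was at 12.91 and 12.32 in the TA animals, against 12.98 in their control pool. Animal 1 lay just under the pool and animal 2 further under it. The mean difference was -0.36 ± 0.29, with -0.06 for animal 1, which shared its inferred fluidics run with the pool, and -0.66 for animal 2. The difference at 24 h exceeded that at 6 h by -1.97. At 6 h 0 of the 7 member probe sets were 2-fold apart in both animals, beside 0.526% of all probe sets.

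The control pools themselves stood apart for Mt2A. The 24 h pool was at 10.39, against 12.98 for the 6 h pool, a 6.00-fold lower level. Of the 7 member probe sets 2, those of Mt1 and Mt2A, were at least 2-fold lower in the 24 h pool, beside 1.72% of all probe sets. This is 1 array against 1, and time, number of doses and inferred fluidics run cannot be told apart in it. In TA animals the level of Mt2A at 24 h differed from that at 6 h by -4.56 ± 0.23, which is 23.5-fold lower and rank 2 of 18625. Against TA animal 2 of 6 h alone, which was in the same inferred run as the 24 h arrays, the difference was -4.26. Time and number of doses cannot be told apart in these TA comparisons either.

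Exchanging the pools kept the direction for Mt2A at 24 h and turned it at 6 h. As the 6 h pool was the higher, the direction at 24 h could not turn, so the exchange does not test it. Against the 6 h pool, the TA animals of 24 h differed by -4.94 and -4.89. Against the 24 h pool, the TA animals of 6 h differed by 2.52 and 1.93. Mt2A was the 1 member probe set at least 2-fold below both pools in both TA animals of 24 h, beside 0.129% of all probe sets. For Mt2A, lying below the 6 h pool followed from lying below the 24 h pool.

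Mt1 (probe set 1388267_a_at), the metallothionein 1 gene, was at 7.98 and 8.14 in the TA animals of 6 h, against 7.44 in their control pool. Both animals lay above the pool, whereas both lay under it for Mt2A. The differences were 0.54 for animal 1, within its inferred fluidics run, and 0.71 for animal 2, with a mean of 0.62 ± 0.51. Probe set 1371237_a_at, which lists Mt1 among several symbols, gave 0.06 and -0.29 for these animals, on either side of the pool. Over all 18625 probe sets, limma's moderated test with Benjamini-Hochberg adjustment called 0 at 6 h (0%), with a smallest adjusted p of 0.635 and 1087 at an unadjusted p under 0.05.

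At 24 h Mt1 was at 5.69 and 4.61 in the TA animals, against 6.26 in their control pool. Both animals lay under the pool, but they differed from each other by more than animal 1 differed from the pool. The differences were -0.56 and -1.65, with a mean of -1.11 ± 0.51, or 2.15-fold lower. The spread between the animals was 0.77 for Mt1 and 0.04 for Mt2A (SD, n = 2). The TA difference at 24 h minus that at 6 h was -1.73. Limma called 1 of 18625 probe sets at 24 h and 1 for the difference between the times (0.00537% each). It was the same probe set, which carries no gene symbol. At 24 h 984 of the 18625 had an unadjusted p under 0.05.

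For Mt1 the 24 h pool was lower than the 6 h pool by a difference of -1.18, or 2.27-fold. In TA animals the level at 24 h differed from that at 6 h by -2.91 ± 0.41, which is 7.52-fold lower and rank 12 of 18625, and by -2.99 against animal 2 of 6 h alone. Against the 6 h pool the TA animals of 24 h differed by -1.75 and -2.83, and against the 24 h pool those of 6 h differed by 1.73 and 1.89. The 2 probe sets of Mt1 and Mt2A were thus at least 2-fold lower in the first of these comparisons, beside 1.56% of all probe sets, and at least 2-fold higher in the second, beside 0.644%.

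**Figure D2:**
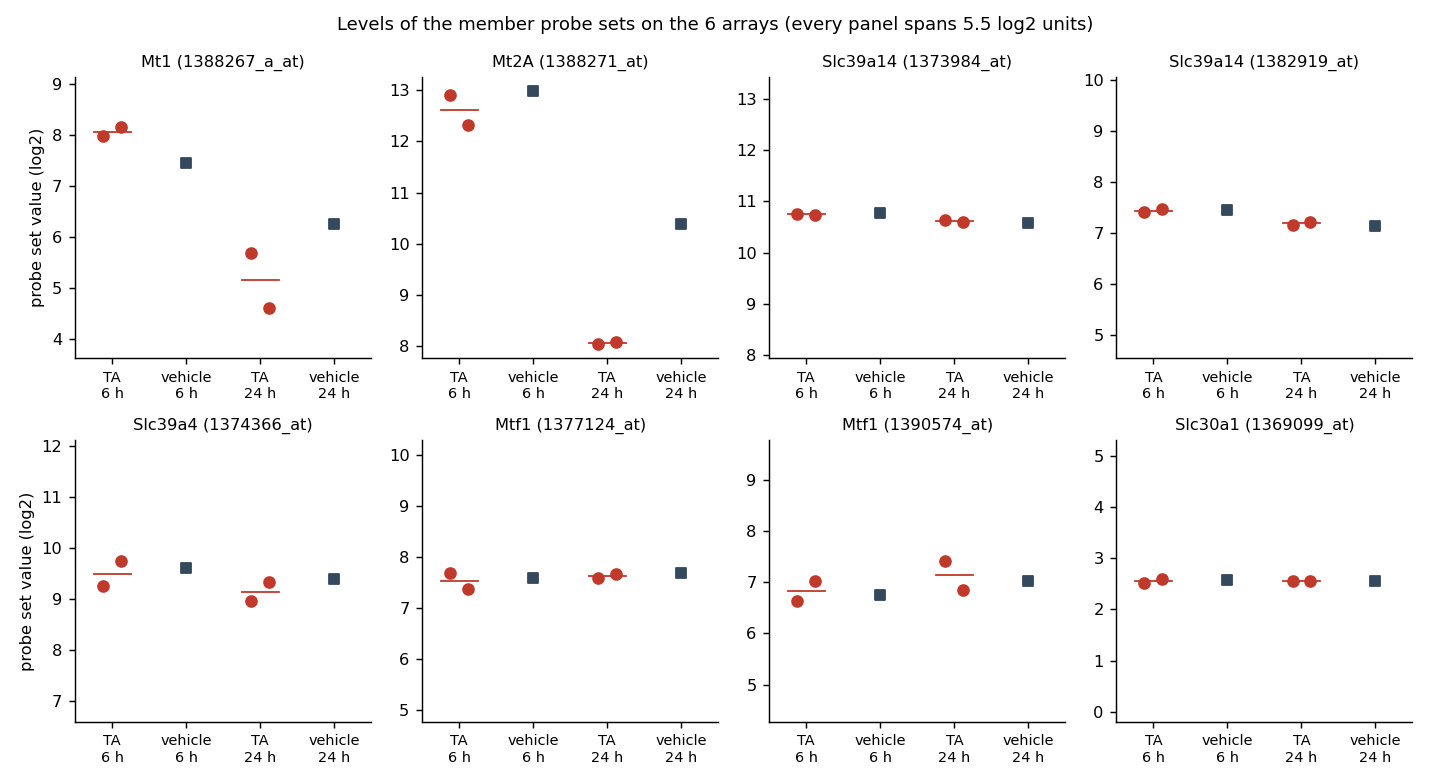
Level (log2) of member probe sets on the 6 arrays, with TA animals as circles, their mean as a line and control pools, 1 array each, as squares. Mt1 and Mt2A are lowest in the TA animals of 24 h, the other probe sets vary by less than 2-fold, and Slc30a1 lies at the floor of the values.

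Both metallothioneins had the same 3 lowest arrays. The TA animals of 24 h were lowest and the 24 h control pool came next, and the 3 arrays of 6 h were above. At the top Mt1 was highest in the TA animals of 6 h, and Mt2A in the 6 h pool with TA animal 1 close beneath it. Of all probe sets, 0.403% were at least 2-fold lower in both TA animals of 24 h than in both of 6 h, and Mt1 and Mt2A were the 2 members among them. In 3 probe sets, 0.0161% of 18625, the 24 h pool was at least 2-fold under the 6 h pool and both TA animals of 24 h were at least 2-fold under the 24 h pool. These were Mt2A, Serpina7 and 1371237_a_at, a probe set that lists Mt1 among 3 symbols and was given to no gene. Metallothionein transcripts resemble each other, and whether these probe sets bind each other's RNA was not tested.

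**Figure D3:**
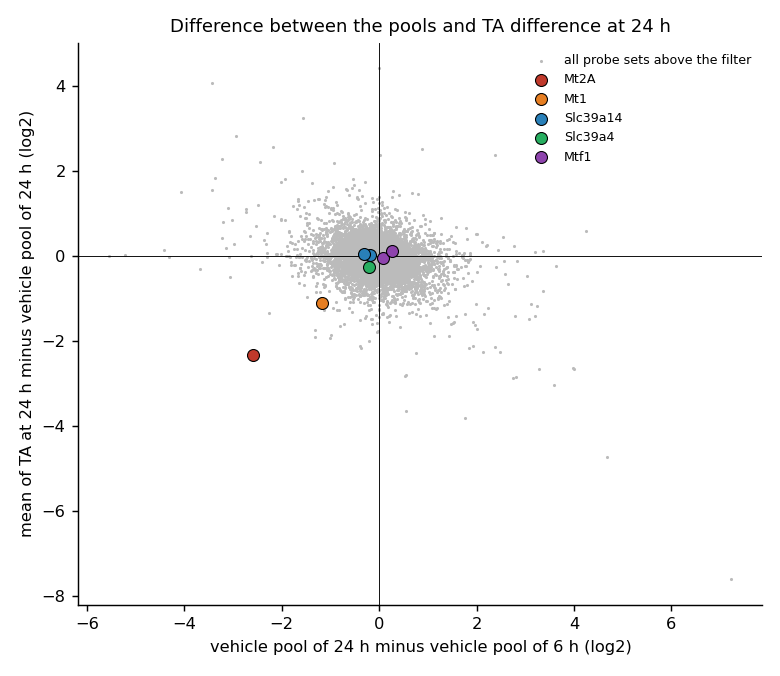
Difference between the control pools (24 h minus 6 h, log2, horizontal axis) and mean TA difference from the pool at 24 h (log2, vertical axis) for the 18625 probe sets above the filter, with members in colour. The 24 h pool enters the axes with opposite signs, and Mt2A at -2.59 and -2.33 and Mt1 at -1.18 and -1.11 lie at the lower left.

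The zinc transporters among the members varied little. Slc39a14, the importer, was at 10.76 and 10.74 in TA and 10.78 in vehicle at 6 h, and at 10.65 and 10.59 in TA and 10.59 in vehicle at 24 h. TA and vehicle lay within a few hundredths at each time. The mean differences were -0.02 ± 0.10 at 6 h and 0.03 ± 0.10 at 24 h, and that at 6 h became 0.08 after quantile normalization. A second probe set of the gene gave -0.02 and 0.06. Between the pools, 24 h minus 6 h, the probe sets gave -0.19 and -0.32.

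Slc39a4, the other importer, was at 9.25 and 9.74 in TA and 9.60 in vehicle at 6 h, with the pool between the animals. At 24 h it was at 8.96 and 9.32 in TA and 9.39 in vehicle, with both animals under the pool. The mean differences of -0.10 ± 0.29 and -0.25 ± 0.29 did not exceed their standard errors. Of 5 enterocyte markers on the array, Slc39a4 among them, 3 lay above the filter. Apoa4, an apolipoprotein that liver also makes, gave -0.16 and -0.26 at the 2 times, and Fabp2, a fatty acid binding protein, 0.01 and 0.53. Vil1 and Alpi lay at the floor on every array. Slc30a1, the exporter, lay between 2.51 and 2.60 on all 6 arrays. A fall or a small rise of Slc30a1 was not detectable at this floor, and no array lay above it.

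Mtf1 varied little as well. Its probe set of highest mean was at 7.69 and 7.36 in TA and 7.59 in vehicle at 6 h, and at 7.59 and 7.66 in TA and 7.68 in vehicle at 24 h. The pool lay between the animals at 6 h and just above them at 24 h. The differences were -0.07 ± 0.18 and -0.05 ± 0.18. A second probe set gave 0.09 ± 0.33 and 0.12 ± 0.33, with animals on either side of the pool at each time, and the remaining one lay between 2.63 and 2.67 throughout. Transcript levels do not measure MTF-1 activity, which zinc sets on the protein.

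**Figure D4:**
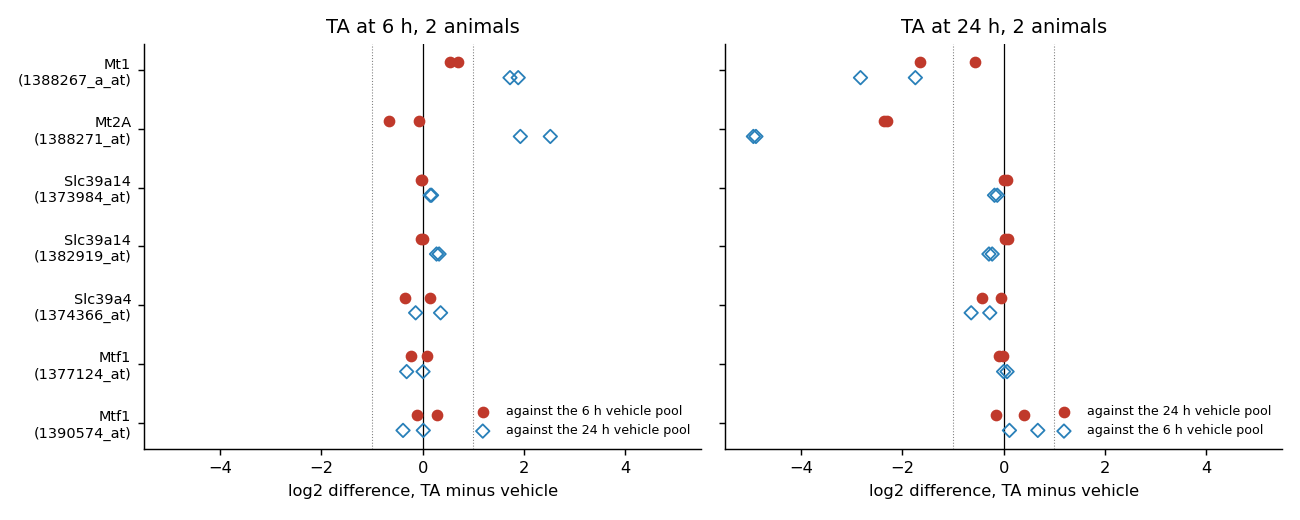
Log2 difference of each TA animal from the control pool of its own time (circles) and of the other time (diamonds), at 6 h on the left and 24 h on the right, for the 7 probe sets above the filter, with dotted lines at 2-fold. At 6 h the circles of Mt2A lie under 0 and the diamonds above it, and at 24 h all points of Mt1 and Mt2A lie under 0.

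The other zinc transporters of the SLC30 and SLC39 families varied little with TA. Of 18 on the array, 14 lay above the filter. Limma called 0 of the 14 at 6 h (smallest adjusted p 0.903) and 0 at 24 h (smallest adjusted p 1.00), with 0 at an unadjusted p under 0.05 at either time. Their median difference was -0.13 at 6 h and -0.05 at 24 h, beside -0.03 and -0.01 over all 10449 genes. Differences ran between -0.35 and 0.31 at 6 h and between -0.55 and 0.27 at 24 h. None was 2-fold apart in both animals (0 of 14 at each time), beside 0.479% of all genes at 6 h and 0.469% at 24 h.

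Slc39a7, which releases zinc from the endoplasmic reticulum, was at 9.86 and 9.66 in TA and 10.11 in vehicle at 6 h, and at 9.78 and 9.62 in TA and 9.96 in vehicle at 24 h. Both animals lay under their pool at each time, with mean differences of -0.35 ± 0.15 and -0.27 ± 0.15. Slc39a11 lay above its pool in all animals, by 0.31 ± 0.22 and 0.27 ± 0.22. Slc30a7, which moves zinc into the Golgi, gave -0.27 ± 0.44 at 6 h with animals on either side of the pool, and -0.55 ± 0.44 at 24 h with both under it. Slc30a10, a manganese exporter, gave -0.33 ± 0.20 and -0.11 ± 0.20.

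Slc39a10, an importer that MTF-1 represses in mouse, is named after its values were seen. It was at 7.89 and 7.49 in TA animals of 24 h, against 6.67 and 6.49 in TA animals of 6 h. The later animals lay above the earlier ones, and the 24 h pool at 7.47 lay above the 6 h pool at 6.74 too. The TA difference between the times was 1.11 ± 0.18. Because the gene was picked by its values, this is a description and no support for a response. Limma's test of TA animals, 24 h against 6 h, passed 0 of 18625 probe sets (0%), Slc39a10 included, with 2760 at an unadjusted p under 0.05.

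**Figure D5:**
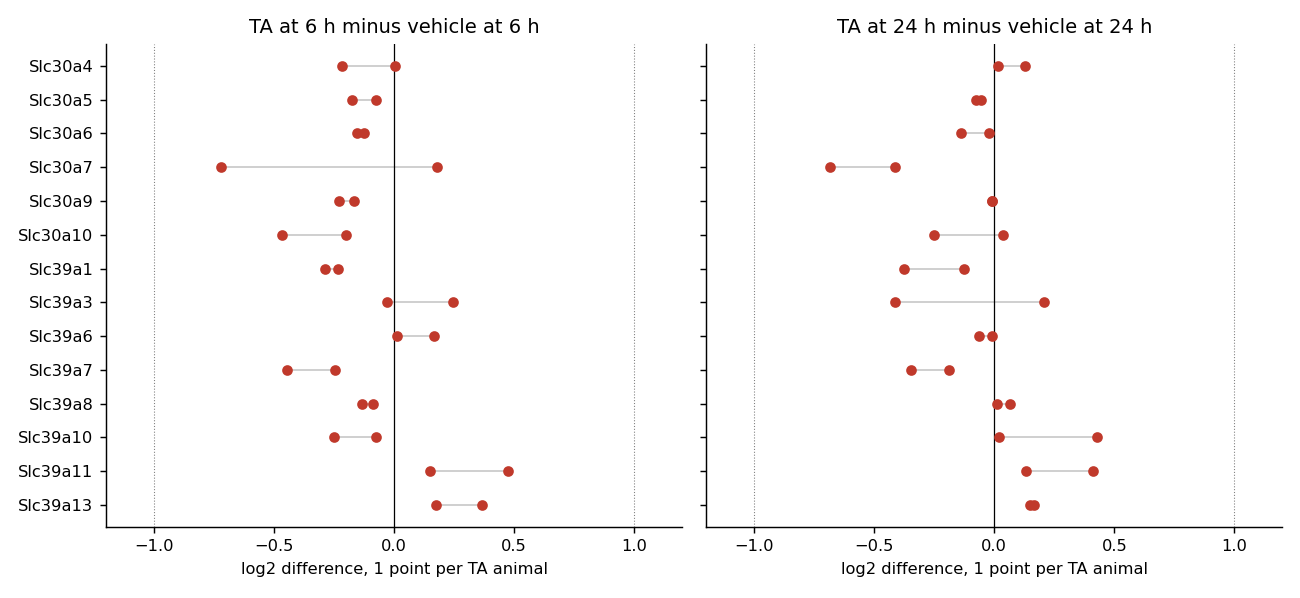
Log2 difference of each TA animal from the control pool of its time for the 14 other zinc transporters above the filter, at 6 h on the left and 24 h on the right, with dotted lines at 2-fold. All points lie inside the 2-fold lines.

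Genes reported as MTF-1 targets were examined without the members. The list includes Slc39a10, which MTF-1 represses in mouse, so a median over it can mix directions of response. Of 10 on the array 9 lay above the filter. Limma called 0 of the 9 at 6 h (smallest adjusted p 0.798, 3 at an unadjusted p under 0.05) and 0 at 24 h (smallest adjusted p 0.950, 0 at an unadjusted p under 0.05). Their median differences were 0.02 and 0.08. Over all 18625 probe sets, 1087 had an unadjusted p under 0.05 in limma's test at 6 h and 984 at 24 h. Hamp, which encodes the iron hormone hepcidin, was at 10.69 and 10.05 in TA and 12.28 in vehicle at 6 h. It was the 1 gene of the list 2-fold apart in both animals, beside 0.479% of all genes. At 24 h Hamp was at 11.07 and 12.95 in TA, one below and one above the pool at 12.05. Txnrd2, mitochondrial thioredoxin reductase, gave -0.12 ± 0.11 and 0.30 ± 0.11, and Selenoh, a selenoprotein, 0.02 ± 0.12 and -0.29 ± 0.12. The metallothioneins Mt3 and Mt4 stayed between 2.79 and 3.26 on every array, close to the floor.

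Of 16 measured genes of copper handling, limma called 0 at 6 h and 0 at 24 h (smallest adjusted p 0.935 and 0.962, 0 at an unadjusted p under 0.05 at either time). Their median differences were -0.11 and 0.06. Atp7a, a copper pump, was at 6.45 and 6.13 in TA and 6.67 in vehicle at 6 h, and at 5.83 and 5.73 in TA and 6.14 in vehicle at 24 h. Both animals lay under their pool at each time. Slc31a2, a copper transporter, gave -0.22 ± 0.17 and 0.40 ± 0.17, and Cox11, a copper chaperone of cytochrome c oxidase, 0.58 ± 0.29 and 0.30 ± 0.29.

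Of 16 measured zinc enzymes of liver, limma called 0 at 6 h and 0 at 24 h (smallest adjusted p 0.962 and 0.923, 0 and 1 at an unadjusted p under 0.05). Their median differences were -0.01 and 0.05. Car5a, a mitochondrial carbonic anhydrase, gave 0.35 ± 0.29 and 0.63 ± 0.29. The carbonic anhydrase relative Car8 gave -0.37 ± 0.19 at 6 h, and Bhmt, which remethylates homocysteine, 0.43 ± 0.43 at 24 h.

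Glucocorticoids and interleukin-6 induce metallothioneins in liver, and genes linked to each were set beside them. Of 15 measured glucocorticoid-induced genes, limma called 0 at 6 h and 0 at 24 h (smallest adjusted p 0.870 and 0.904, 0 and 1 at an unadjusted p under 0.05). Their median differences were -0.17 and 0.14. Igfbp1, which binds insulin-like growth factors, was at 10.26 and 9.08 in TA and 8.41 in vehicle at 6 h, and at 5.85 and 7.16 in TA and 8.02 in vehicle at 24 h. Both animals lay above the pool at 6 h and under it at 24 h, as for Mt1. Sds, serine dehydratase, had the opposite signs, -1.57 ± 0.59 and 4.08 ± 0.59. It was at 9.22 and 7.96 in TA and 10.16 in vehicle at 6 h. At 24 h it was at 10.94 and 10.68 in TA and 6.73 in vehicle. Its 24 h pool differed from its 6 h pool by -3.43. Against the pool of the other time the mean differences of Sds were 1.86 at 6 h and 0.65 at 24 h, so the sign at 6 h turned.

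The interleukin-6 and STAT3 list held acute phase genes together with receptors, kinases and transcription factors. Of its 20 measured genes, limma called 0 at 6 h and 0 at 24 h (smallest adjusted p 0.832 and 0.904, 2 and 3 at an unadjusted p under 0.05). Their median differences were -0.08 and -0.12, with 13 genes under the pool in both animals and 4 above it at 6 h, and 11 under and 1 above at 24 h. Of all 10449 genes, 38.4% lay under the pool in both animals at 6 h and 34.5% at 24 h. Of all 18625 probe sets, 1087 at 6 h and 984 at 24 h had an unadjusted p under 0.05 in limma's test. A2m, alpha-2-macroglobulin, was at 8.01 and 6.87 in TA animals of 24 h, against 9.04 in their control pool.

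Profiles most like those of the metallothioneins were ranked by the root mean square (RMS) difference of log2 values over the 6 arrays, each probe set centred on its own mean, among 2150 named probe sets that ranged over at least 1. For Mt2A the nearest were Nr1d2 at 0.75 and, on a second probe set, 0.84, Serpina7 at 0.83, Egr1 at 0.90 and Dbp at 0.98. Nr1d2 and Dbp are clock-controlled transcription factors, Egr1 is an immediate early factor, and Serpina7 is thyroxine-binding globulin. Mt1 stood at 1.02 from Mt2A, rank 7. Only probe sets with 1 symbol were ranked, so 1371237_a_at, which lists Mt1 among 3 symbols, was left out. That probe set was also lower in the later pool, by -2.27, and with TA at 24 h, by -1.34. The nearest profiles named are therefore not shown to be nearer than it. For Mt1 the nearest were Serpina7 at 0.44, Igfbp2 at 0.47, Fbln5 at 0.47, Ppargc1a at 0.48 and Tnfrsf9 at 0.49, and Mt2A was at rank 461.

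The neighbours of Mt2A differed in how the gap arose. Nr1d2 (1370541_at) was at 6.39 and 5.66 in TA animals of 24 h and 6.32 in their pool, a TA difference of -0.30 beside -3.69 between the pools. Dbp gave 0.14 and -4.42 for the same differences. Serpina7 was at 6.71 and 6.30 in TA animals of 24 h, against 8.43 in their pool, with 9.44 in the 6 h pool. Like Mt2A it was lower both with TA at 24 h and in the later pool. The labels used here give no clock time of sampling.

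Markers of stellate cells and fibroblasts had lower values in the TA animals of 24 h, with 0 called by limma (smallest adjusted p 1.00, 0 at an unadjusted p under 0.05). Of 8 on the array 7 lay above the filter and Des lay at the floor. Their median level was 8.88 and 9.25 in TA and 9.67 in vehicle at 24 h, and 9.96 and 9.67 in TA and 9.80 in vehicle at 6 h. At 24 h 5 of the 7 lay under the pool in both animals, beside the 34.5% of all genes given above. The shift was not particular to these markers. Median differences at 24 h were -0.56 for them, -0.57 for 2 neutrophil markers and -0.18 for 6 markers of sinusoidal endothelium. They were 0.06 for macrophage, 0.02 for cholangiocyte and 0.003 for hepatocyte markers. The part of any of these cell types in the values of Mt1 and Mt2A was not tested.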

How the data were processed

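Liver RNA of 6 arrays was analysed from the table of 31099 probe sets, whose values the authors deposited on a log2 scale. Named in the submitters' processing notes are R 2.0.1, affy 1.5.8, RMA and GCRMA. Whether RMA or GCRMA made the values is not stated in any source used here. Low values form a dense floor between 2 and 3, where differences are compressed. Instrument settings, also deposited, held a hybridization date field, of which only the clock time was read. Arrays within 5 minutes of each other were taken as a fluidics run. The day was not compared, so arrays of different days could fall in the same run. The number of arrays limits the precision.

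Without the 57 control probe sets, 20826 had 1 symbol in the platform annotation, 436 several and 9780 none. Gene identifiers of all 9 member probe sets were found in the RefSeq table (GRCr8) under the same symbol. The filter kept the 18625 probe sets whose mean exceeded 2.82, the 40th percentile. A fit to these used limma 3.58.1 under R 4.3.3 (4 group means, lmFit and eBayes, 2 residual and 1.60 prior degrees of freedom). P-values were two-sided, Benjamini-Hochberg adjusted over all 18625 and called under 0.05. In lists, a gene was represented by its probe set of highest mean. The procedure was tested on simulated arrays.

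The members and lists were chosen with earlier results of these data known. Every member probe set was described. From each list, the genes named were those called, plus the 3 largest differences among genes 2-fold apart from the pool in both animals, or otherwise the 2 largest, at each time. The 5 nearest profiles were named for Mt1 and for Mt2A. Same-numbered TA animals of the 2 times were different rats whose deviations correlated at -0.08, so the numbers do not pair them. Alternatives covered normalization, centring, a floor at 4, the filter, the prior, the control pool, the choice of probe set, a replicate block and leaving out each TA array. The inferred fluidics run as a block was added after seeing the data.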

Additional observations from a re-analysis of the deposited data

Results flagged for a closer look

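The TA difference of Mt1 on probe set 1388267_a_at had opposite signs at the times. Both TA animals were above the control pool at 6 h and both under it at 24 h. The difference of effects (24 h minus 6 h) was -1.73. On probe set 1371237_a_at, which lists Mt1 among several symbols, the animals of 6 h lay on either side of the pool, at 0.06 and -0.29. Slc39a14 on its first probe set had signs the other way round from Mt1, with a difference of effects of 0.055. Both animals lay slightly under the pool at 6 h and slightly above it at 24 h. Its mean differences of -0.02 and 0.03 were smaller than their standard errors of 0.10. That at 6 h became 0.08 after quantile normalization. On the second probe set of Slc39a14 the animals of 6 h lay on either side of the pool, at -0.04 and 0.01. Among the related genes named, Igfbp1 had the order of Mt1, at -2.77. Sds at 5.65, Slc31a2 at 0.62 and Txnrd2 at 0.42 had the opposite order. For Sds the control pools differed by -3.43 (24 h minus 6 h), and its sign at 6 h turned against the other pool. These opposite signs were not tested for the members. Limma's test of the difference of effects did not call any of the related genes named here, the 1 probe set it called having no symbol. Both animals of a time share 1 pool, so their common direction is not independent.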

How the results depend on the processing

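Of 251 values recomputed under alternatives, 212 stayed within the spread between the TA animals or, for counts, within 1.5 times, and 39 moved. Of the 170 recomputed differences of members, 45 were identical to the reported value, such as a 6 h difference without a 24 h animal. Among alternatives that changed the value, Mt1 kept its sign in 8 of 8 at 6 h and 7 of 7 at 24 h. Mt2A kept it in 7 of 7 at 24 h, and its sign turned in 2 of 8 at 6 h. For Mt1 at both times and Mt2A at 24 h, both animals lay on the same side of both pools. Leaving out 1 TA animal, exchanging the pools or merging them therefore could not turn the sign there. These tallies do not test the direction. With the control pool of the other time Mt1 had 1.81 at 6 h and -2.29 at 24 h, and Mt2A had 2.23 and -4.92. With both pools as 1 control group Mt1 had 1.22 at 6 h, and Mt2A 0.93 at 6 h and -3.62 at 24 h. With a replicate block Mt1 had 0.85 at 6 h and Mt2A -2.20 at 24 h. Leaving out 1 TA array gave Mt1 0.54 to 0.71 at 6 h and -1.65 to -0.56 at 24 h, and Mt2A -0.66 to -0.06 and -2.36 to -2.31. Limma's calls at 24 h, 1 over all probe sets, became 0 with the other pool or both pools as 1 group. They also became 0 with the inferred fluidics run as a block or the replicate block, and 2 with a trend and robust prior. They were 0 without TA_6h animal 1 or 2 and 2 without TA_24h animal 1. At 6 h the other pool gave 1 call. Of 88 related genes, 1 at 6 h and 2 at 24 h were 2-fold apart in both animals, beside 0.479% and 0.469% of all genes. The share of all genes under each alternative is not given here, so the following counts are no result about the related genes. With the other pool, the related genes 2-fold apart became 5 and 7. At 24 h they were 4 with both pools as 1 group and 1 after quantile normalization. Resting on 1 animal, they were 3 without animal 1 and 7 without animal 2 at 6 h, and 4 without either at 24 h. No alternative run called a related gene with limma (0 in each). The causes were not tested. The single array per vehicle group limits every TA difference.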

Other observations

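Probe set 1371237_a_at lists Mt1 with 2 other symbols, Mt1f and Ttr, and was given no gene name. It was at 15.29 and 14.94 in TA and 15.24 in vehicle at 6 h, and at 11.87 and 11.38 in TA and 12.97 in vehicle at 24 h. Its TA difference was -0.12 at 6 h and -1.34 at 24 h, and the 24 h pool differed from the 6 h pool by -2.27. In TA animals, 24 h minus 6 h was rank 5 of 18625 from the lowest. Ttr, on a probe set of its own, lay between 15.60 and 15.70 on all 6 arrays.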
